A study of Mus musculus with 14 samples.

Results

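Primary mouse microglia from 14 cultures were profiled by RNA-seq, and the cultures that held the most RNA of astrocyte genes are compared here with those that held the least. Microglia are the resident macrophages of the brain, and they were taken from the forebrains of P6 to P7 pups. The pups are labelled C57BL/6, and the methods give a C57Bl/6J background. They were either TIMP2 KO, which carry a global deletion of the gene for tissue inhibitor of metalloproteinases 2, or WT. Each culture was a pool of 5 pups of 1 genotype, male and female together, from which CD11b-positive cells were selected on magnetic beads, plated on poly-d-lysine in medium with serum, and collected without any treatment. There were 7 cultures of each genotype, and each gave 1 poly(A) library. A score was computed for every library as the mean of the log2 CPM (counts per 1e6 mapped, scaled for composition with the TMM method, prior count 1) of 6 astrocyte genes, namely Gfap, Aqp4, Slc1a2, Slc1a3, Gja1 and Aldoc. Within each genotype the 3 libraries with the highest and the 3 with the lowest score were taken, and the library in the middle was left out, so that 12 of the 14 libraries entered, 6 with high and 6 with low astrocyte RNA.

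The libraries were thus chosen by measured values, and the 6 score genes serve only to describe the choice. For all other genes the difference between high and low libraries is also a description, since any gene that follows the score will differ between libraries selected on it. The threshold used below (the quasi-likelihood test of edgeR at a Benjamini-Hochberg adjusted p of 0.05, genotype being a covariate) sorts genes by how large their difference is against the spread between libraries, and it is not a test of a treatment. Differences are given as log2 values, high minus low, with their standard error (SE).

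Astrocytes are the glial cells that clear glutamate and potassium from the space around synapses, couple to each other through gap junctions, and line blood vessels with end feet rich in water channels. They arise from radial glia, as oligodendrocyte precursors also do, and they release proteins such as colony-stimulating factor 1 receptor ligands that keep microglia alive. Cultures of microglia selected from neonatal brain commonly hold a small number of other glial cells. In bulk RNA, fewer cells of a type and less RNA per cell cannot be told apart.

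The scores ran from 1.30 to 3.88 in the KO cultures and from 1.62 to 4.76 in the WT cultures. In KO, the high cultures were replicates 7, 1 and 2 with scores of 3.88, 3.74 and 3.60, replicate 6 was left out at 2.55, and the low cultures were replicates 3, 4 and 5 at 2.30, 2.15 and 1.30. In WT, the high cultures were replicates 4, 3 and 6 at 4.76, 4.35 and 4.04, replicate 2 was left out at 3.50, and the low cultures were replicates 7, 1 and 5 at 3.13, 2.50 and 1.62. The boundary is therefore wide in KO above the middle culture and narrow below it in both genotypes, where KO replicate 3 and WT replicate 7 were close to the cultures left out. All high cultures of both genotypes lay above all low cultures. The summed level of the 6 genes was 78.9 to 227 CPM (median 113.7) in the high cultures and 17.0 to 58.5 CPM (median 31.5) in the low cultures. KO cultures had a mean score of 2.79 ± 0.972 (SD, n = 7) and WT cultures 3.41 ± 1.10 (SD, n = 7), a difference of -0.625 that was within the spread (exact permutation test, two-sided, p = 0.277).

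**Figure D1:**
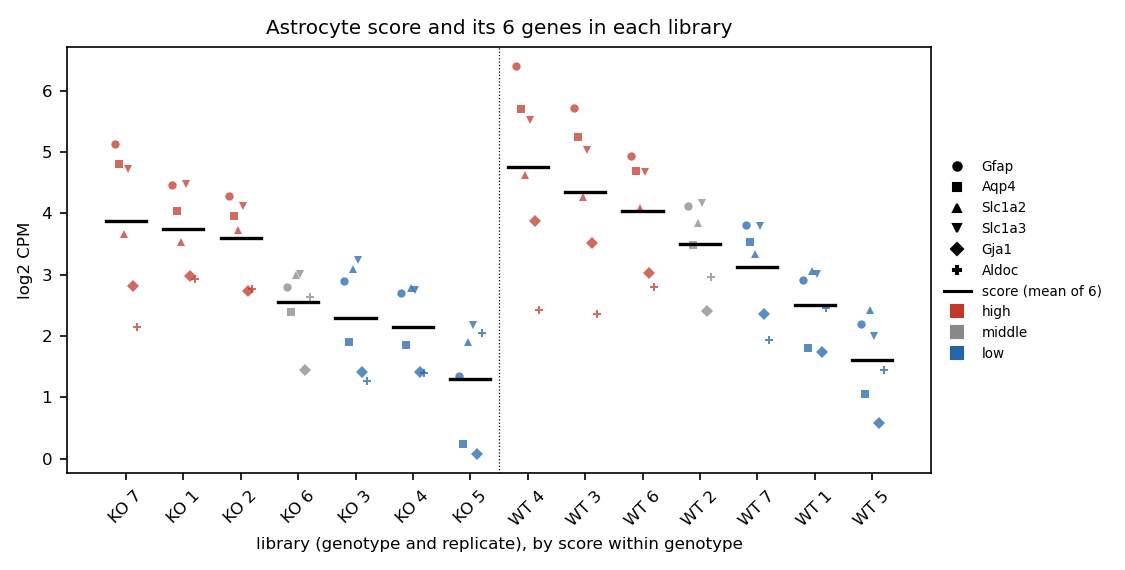
Astrocyte score (black bar, mean log2 CPM of 6 genes) and each score gene (symbols) in the 14 libraries, ordered by score within KO and WT; red marks high, grey middle and blue low libraries. Scores ran from 3.60 to 4.76 in the 6 high libraries and from 1.30 to 3.13 in the 6 low libraries.

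Values of single libraries are given below in the order of their scores, highest first. Among the score genes, Gfap, the intermediate filament of astrocytes, was at 35.1, 22.0 and 19.4 CPM in the KO high cultures, 7.45, 6.48 and 2.53 in the KO low cultures, 84.3, 52.6 and 30.6 in the WT high cultures and 14.1, 7.56 and 4.57 in the WT low cultures. Aqp4, the water channel of the end feet, was at 15.5 to 52.1 CPM (median 26.8) in the high cultures and 1.15 to 11.5 CPM (median 3.54) in the low cultures. The glutamate transporter genes Slc1a3 and Slc1a2 were at 17.3 to 45.9 CPM against 3.96 to 13.9 CPM and at 11.5 to 24.6 CPM against 3.71 to 10.1 CPM (high against low). Gja1, which encodes the gap junction protein connexin 43, was at 6.63 to 14.7 CPM (median 7.99) in the high cultures and 1.03 to 5.11 CPM (median 2.64) in the low cultures. For 5 of the 6 genes the high and low cultures of each genotype did not overlap. For Aldoc, an enzyme of glycolysis, they did not overlap in KO (4.43 to 7.62 CPM against 2.38 to 4.10 CPM) but overlapped in WT, where the low replicate 1 was at 5.45 CPM and the high replicate 3 at 5.08 CPM. The low cultures were thus not free of astrocyte RNA, and each of the 6 genes was detected in every library.

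The groups differed in depth by less than the spread between libraries. Total counts were 38875344 to 48070236 per library over the 12, with means of 42671300 ± 3584290 in the high and 43869200 ± 2284790 in the low cultures (SD, n = 6 each, exact permutation within genotype, two-sided, p = 0.445). Genes with at least 1 count numbered 24002.5 ± 364 in the high and 23703.8 ± 325 in the low cultures (exact permutation p = 0.195). The share of counts on mitochondrial genes was 1.14% ± 0.0342 in the high and 1.08% ± 0.0448 in the low cultures (exact permutation p = 0.015, 0.045 after adjustment over these 3 measures, the smallest possible p being 0.005 with 400 arrangements). The mitochondrial share therefore moved with the astrocyte RNA, by 0.0568 percentage points, and its part in the differences below was not tested.

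The label of the cultures held in all of them: 19 myeloid identity genes such as Csf1r, the receptor that microglia need for survival, took 1.78% to 2.06% of the counts of every library. Timp2, the deleted gene, marked the genotypes in every library, at 120.2, 121 and 119.8 CPM in the KO high cultures, 123, 129 and 121 in the KO low cultures, 487, 497 and 495 in the WT high cultures and 466, 432 and 396 in the WT low cultures. KO cultures thus kept part of the Timp2 signal, and no KO library reached the lowest WT library.

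Of 16220 genes tested, 1345 (8.29%) passed the threshold as higher and 386 (2.38%) as lower with high astrocyte RNA. The 2 directions differed in size. The genes that were higher had a median difference of 1.14 and a maximum of 3.00, and 793 of them exceeded 1, whereas the genes that were lower had a median of -0.17 and a minimum of -1.86, and 11 of them were below -1. Over all tested genes the median was -0.0075 and 7681 were above 0. The genes with a difference over 1 took 0.0536% to 0.147% of the counts of the low cultures and 0.227% to 0.462% of those of the high cultures, so that large relative differences rested on a small share of the RNA. Genes whose high and low libraries did not overlap in KO nor in WT numbered 1051 higher (6.48%) and 453 lower (2.79%). Nothing is read from these counts, because the libraries were selected on RNA measured in the same libraries. The count of each list below is to be set beside the shares of 8.29% higher and 2.38% lower over all tested genes.

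KO and WT cultures have no library in common, which allows the difference to be set side by side in both. Of 866 genes that differed by more than 1 in either direction in the KO cultures, 837 (96.7%) had the same sign in the WT cultures, and of 943 such genes in WT, 910 (96.5%) had the same sign in KO. For all 15541 genes in both fits the share was 70.6% (10970 genes). With 3 libraries a side, 83 genes passed the threshold as higher in the KO cultures alone and 0 in the WT cultures alone, where 2492 had an unadjusted p under 0.05.

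**Figure D2:**
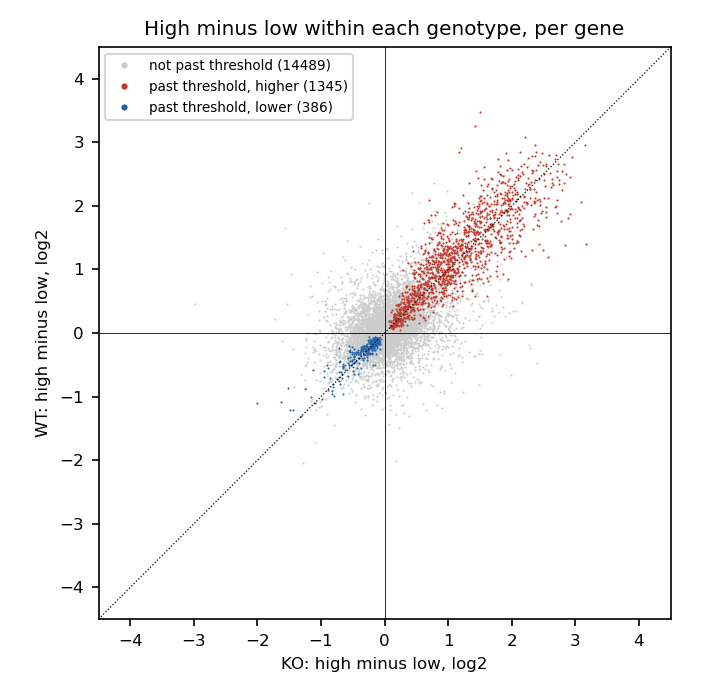
Log2 difference, high minus low astrocyte RNA, in the KO cultures (horizontal) and in the WT cultures (vertical), 1 point per gene without the 6 score genes; colours mark genes past the threshold in the fit over both genotypes (red 1345 higher, blue 386 lower) and grey the others, and the dotted line is equality. The red genes reach about as far along both axes, and the blue genes stay close to the origin.

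Other genes typical of astrocytes were higher in most cases. Among transporters and channels, 9 of the 11 tested genes passed the threshold as higher and 0 as lower, with a median of 1.71 for the list. Hepacam, an adhesion protein of the end feet, was at 4.95, 3.63 and 3.30 CPM in the KO high cultures, 1.16, 0.902 and 0.491 in the KO low cultures, 8.60, 6.82 and 4.77 in the WT high cultures and 2.50, 1.19 and 0.7 in the WT low cultures. The high cultures of each genotype all exceeded its low cultures, and the difference was 2.22 ± 0.29. Mlc1, the membrane protein that binds it, differed by 2.08 ± 0.30, at 3.43 to 11.2 CPM (median 5.03) in the high cultures and 0.786 to 2.82 CPM (median 1.27) in the low cultures. Atp1b2, a subunit of the glial sodium pump, differed by 1.71 ± 0.20, and the bicarbonate transporter Slc4a4 by 1.91 ± 0.21. Kcnj10, the main inward-rectifier potassium channel of astrocytes, differed less, by 0.63 ± 0.12. The GABA transporter Slc6a11 (0.83 ± 0.31) and Kcnj16 (0.63 ± 0.20) did not pass. Slc7a10 and Gjb6 had at most 27 counts in any library and were not tested.

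Receptors, regulators and secreted proteins of astrocytes followed, with 11 of 13 higher, 0 lower and a median of 1.40. Fgfr3, a receptor for fibroblast growth factors, was at 5.78 to 16.4 CPM (median 8.93) in the high cultures and 0.516 to 4.12 CPM (median 1.64) in the low cultures, with a difference of 2.41 ± 0.35. F3, the tissue factor that starts clotting, differed by 2.25 ± 0.30 and the secreted chaperone Clu by 2.02 ± 0.21. Clu was at 12.3, 11.3 and 11.9 CPM in the KO high cultures, 3.30, 3.32 and 1.97 in the KO low cultures, 21.7, 15.3 and 9.40 in the WT high cultures and 4.81, 4.34 and 2.71 in the WT low cultures. Both genotypes separated completely for Clu, and the middle cultures were at 2.13 CPM in KO and 11.7 CPM in WT. The transcription regulators Id4 and Sox9 were higher by 1.98 ± 0.31 and 1.27 ± 0.30, but Nfia, which drives the switch to glial fate and is also expressed by other cells, was at 30.3 to 39.2 CPM (median 36.4) in the high cultures and 29.9 to 36.5 CPM (median 33.7) in the low cultures and did not pass (0.10 ± 0.07).

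Metabolic genes were mixed: 5 of 12 were higher, 0 lower, with a median of 0.94. Mt3, a metal-binding protein of brain, differed by 2.30 ± 0.31, and the acyl-CoA synthetase genes Acsbg1 and Acsl6 by 2.01 ± 0.29 and 1.62 ± 0.20. Aldh1l1, an enzyme of folate metabolism often used to mark astrocytes, was at 10.3 to 21.4 CPM (median 13.2) in the high cultures and 7.31 to 11.6 CPM (median 9.93) in the low cultures and did not pass (0.54 ± 0.17). Glul, the glutamine synthetase, was at 498 to 677 CPM (median 599) in the high cultures and 493 to 625 CPM (median 585) in the low cultures, so that its groups overlapped over most of their range (0.07 ± 0.08).

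Genes reported in reactive astrocytes were higher in 8 of 14 cases and lower in 1, with a median of 1.34. Timp1, an inhibitor of metalloproteinases of the same family as Timp2, was at 1.56, 1.21 and 1.47 CPM in the KO high cultures, 0.259, 0.427 and 0.147 in the KO low cultures, 3.13, 2.48 and 1.47 in the WT high cultures and 1.06, 0.362 and 0.35 in the WT low cultures. It was low in all cultures, but the high and low cultures of each genotype did not overlap, and the difference was 2.15 ± 0.32. S1pr3, a receptor for sphingosine 1-phosphate, differed by 2.48 ± 0.38, the protease inhibitor Serpina3n by 2.55 ± 0.40 and Osmr, a subunit of the oncostatin M receptor, by 2.03 ± 0.29. Lcn2, the iron-carrier protein lipocalin 2, was at 1.64 to 7.96 CPM (median 5.97) in the high cultures and 0.985 to 3.39 CPM (median 1.45) in the low cultures and differed by 1.56 ± 0.41, with overlap. The exception was Gbp2, a guanylate-binding protein that interferon induces, which was lower, at -0.54 ± 0.14, and did not pass without KO replicate 1. Vim, C3 and Cd44, which macrophages also express, did not pass (0.20 ± 0.17, -0.37 ± 0.29 and 0.08 ± 0.05).

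**Figure D3:**
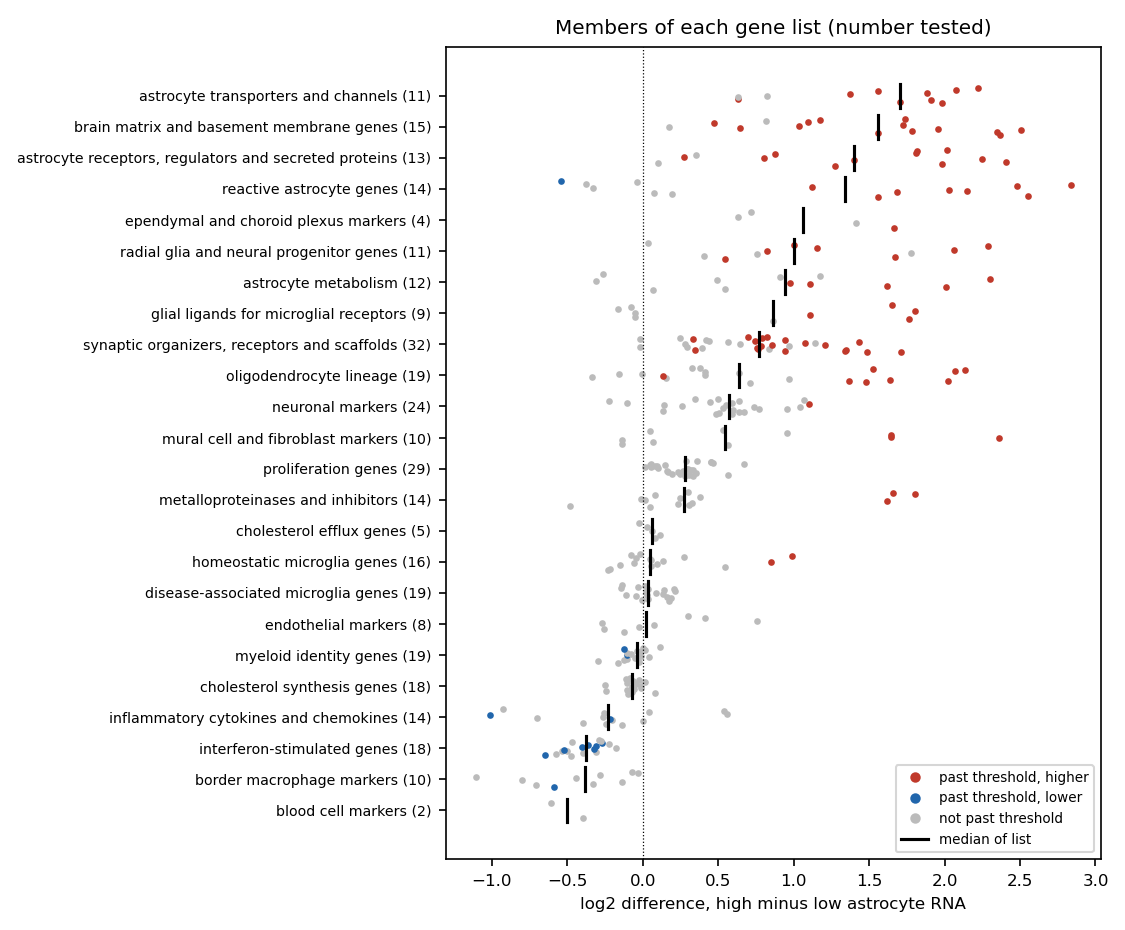
Log2 difference, high minus low astrocyte RNA, of each tested member (points) of 24 gene lists, with the number tested in brackets and the list's median as a black bar; red points passed the threshold as higher, blue points as lower and grey points did not. Medians run from 1.71 for astrocyte transporters to -0.39 for border macrophage markers and -0.50 for blood cell markers, of which only 2 were tested and whose median was -1.24 without KO replicate 7 and 0.19 without KO replicate 3.

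Genes of radial glia and progenitors were higher in 7 of 11 cases (0 lower, median 1.00). The count fell to 2 without KO replicate 1, WT replicate 4 or WT replicate 5, to 3 without KO replicate 7 and to 4 without WT replicate 3 or KO replicate 5, while all 11 stayed above 0 in these fits. Fabp7, the brain fatty acid-binding protein of radial glia, was at 21.9, 17.8 and 14.9 CPM in the KO high cultures, 5.78, 5.01 and 3.49 in the KO low cultures, 48.4, 29.8 and 18.7 in the WT high cultures and 10.1, 6.96 and 4.66 in the WT low cultures, without overlap in either genotype, and differed by 2.06 ± 0.24. Sox2, a factor of neural stem cells, was at 3.60 to 11.1 CPM (median 6.21) in the high cultures and 0.246 to 4.02 CPM (median 2.23) in the low cultures (1.67 ± 0.47). Nes, the filament nestin, differed by 0.55 ± 0.14, and Pax6 (0.40 ± 0.21) and Hes5 (1.78 ± 0.57) did not pass.

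In the oligodendrocyte lineage, whose precursors mature into the cells that make myelin, 8 of 19 tested genes were higher and 0 lower, with a median of 0.64 (0.42 without KO replicate 4 and 0.41 without WT replicate 6). Olig1 and Olig2, the transcription factors of the lineage, differed by 2.02 ± 0.33 and 1.64 ± 0.30. Olig1 was at 9.83, 10.2 and 7.03 CPM in the KO high cultures, 3.91, 2.21 and 0.934 in the KO low cultures, 20.3, 13.4 and 9.47 in the WT high cultures and 5.39, 3.17 and 1.66 in the WT low cultures, and the genotypes gave the same picture of full separation. The precursor proteoglycan Cspg4 differed by 1.48 ± 0.25, the matrix protein Tnr by 2.13 ± 0.35, and Sox10, which was at 0.227 to 1.22 CPM against 0.123 to 0.439 CPM (high against low), by 1.37 ± 0.37. Pdgfra, the growth factor receptor of precursors, was at 4.67 to 9.63 CPM (median 6.77) in the high cultures and 2.14 to 5.53 CPM (median 4.77) in the low cultures and did not pass (0.71 ± 0.22). Myelin genes differed little, with -0.01 ± 0.11 for Mag and -0.16 ± 0.06 for Cnp, neither of which passed, and 0.13 ± 0.03 for Mbp, which did. Mog, Ermn and Opalin had at most 16 counts in any library and were not tested.

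Genes named for synapses were counted apart from the markers of neurons. Of 32 genes for synaptic organizers, receptors and scaffolds, 19 were higher and 0 lower, with a median of 0.77. The count was 10 without KO replicate 2 or WT replicate 5, 11 without KO replicate 4 or WT replicate 4 and 12 without WT replicate 7, with medians of 0.65 to 0.80 in these fits. Nrxn2, a presynaptic adhesion protein, was at 8.38, 8.58 and 8.48 CPM in the KO high cultures, 4.83, 3.13 and 2.36 in the KO low cultures, 17.7, 13.5 and 9.27 in the WT high cultures and 5.20, 4.90 and 2.80 in the WT low cultures. Each high culture exceeded each low culture of its genotype, and the difference was 1.49 ± 0.21. Its binding partners Nlgn3 and Nlgn1 differed by 1.35 ± 0.37 and 1.34 ± 0.28, and the glutamate receptor subunit genes Gria3 and Gria4 by 1.21 ± 0.21 and 0.85 ± 0.14. Homer1, a scaffold of the postsynaptic density, and Vamp2, a vesicle protein, did not pass (-0.02 ± 0.05 and -0.02 ± 0.08). Of 24 neuronal markers 1 passed, Gap43 of growing axons (1.10 ± 0.15), where 8.29% of all tested genes passed as higher. Gap43 was at 4.74 to 9.82 CPM (median 5.52) in the high cultures and 1.82 to 4.22 CPM (median 2.81) in the low cultures. Of the 24 markers, 22 were above 0 with a median of 0.57. The count past the threshold was 5 without WT replicate 1 or KO replicate 3, 2 without KO replicate 7 and 6 with DESeq2 or without a filter on low counts. It was 5 with the score as a gradient over all 14 libraries, where 14 of the synaptic genes passed. Snap25, a protein of vesicle release, was at 2.57, 6.18 and 9.40 CPM in the KO high cultures, 3.35, 2.56 and 3.59 in the KO low cultures, 4.28, 4.51 and 9.40 in the WT high cultures and 3.93, 6.77 and 4.55 in the WT low cultures. Its highest culture over the 14 was the WT culture left out of the split, at 13.6 CPM, and the groups overlapped in both genotypes (0.59 ± 0.31). Rbfox3, the nuclear marker of mature neurons, differed by 0.13 ± 0.17 and Camk2a by -0.23 ± 0.15, neither past the threshold. The synaptic and the neuronal list were not tested against each other.

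Matrix genes of the brain and of basement membranes showed the second-highest median, 1.56, with 13 of 15 higher and 0 lower. Ncan, the brain proteoglycan neurocan, was at 141, 105 and 80.0 CPM in the KO high cultures, 37.5, 20.8 and 5.36 in the KO low cultures, 224, 156 and 118 in the WT high cultures and 61.9, 24.3 and 13.7 in the WT low cultures. Its lowest high culture was above the highest low culture in each genotype, and the difference was 2.34 ± 0.42. Tnc, the glycoprotein tenascin C, was at 28.0 to 55.8 CPM (median 37.1) in the high cultures and 1.89 to 16.7 CPM (median 7.51) in the low cultures (2.37 ± 0.39). Bcan and Vcan, proteoglycans of the same family as neurocan, differed by 1.56 ± 0.28 and 1.78 ± 0.26, and Ptprz1, the receptor phosphatase that binds them, by 1.96 ± 0.33. Acan, the proteoglycan aggrecan, had 0.176 to 0.693 CPM in the high cultures and 0 to 0.254 CPM in the low cultures, where 1 KO culture had no read. Basement membrane genes were also higher, with 1.74 ± 0.29 for Hspg2, 1.17 ± 0.25 for Nid1 and 1.10 ± 0.24 for Col4a1. Lama1 (0.17 ± 0.42) and Col4a2 (0.82 ± 0.32) did not pass.

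Of the family of the deleted gene, Timp3 and Timp4 were higher with astrocyte RNA, as was Timp1 among the reactive astrocyte genes, and Timp2 was not. Timp3 was at 4.88, 4.82 and 4.48 CPM in the KO high cultures, 1.86, 1.57 and 0.614 in the KO low cultures, 7.98, 6.63 and 4.56 in the WT high cultures and 2.82, 2.00 and 0.766 in the WT low cultures. Timp4 was at 1.87 to 3.70 CPM (median 2.35) in the high cultures and 0.418 to 1.36 CPM (median 0.781) in the low cultures. Both separated the high from the low cultures in each genotype, with differences of 1.80 ± 0.29 and 1.65 ± 0.23. Timp2 differed by 0.08 ± 0.05 over both genotypes and did not pass. In WT cultures alone its high libraries lay above its low libraries with a difference of 0.20, against -0.04 in KO, and the interaction did not pass the threshold (edgeR adjusted p = 1.00, unadjusted p = 0.0075). Of the proteases, Mmp15 was higher (1.62 ± 0.23), while Mmp2 (0.05 ± 0.22), Mmp9 (-0.48 ± 0.44) and Mmp12 (0.30 ± 0.29) were not past the threshold. Over the 14 tested genes of the list for metalloproteinases and their inhibitors, which does not hold Timp1, the count was 3 higher and 0 lower. The median was 0.27 (0.18 without KO replicate 1 and 0.16 without KO replicate 5).

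Ligands that act on microglia, named glial ligands in the figures, gave 4 of 9 past the threshold as higher and 0 as lower, with a median of 0.86. The list is not limited to products of glia, and which cells made them was not tested. Of the 4, Il34 and Lif reached the level of the filter on low counts (0.234 CPM) in no low culture, so that they were tested only through the high cultures and had to differ, as did 65 of the 1345 genes called higher. In the fit without genotype as a term, 7 of the list were tested and 2 passed, with a median of -0.05. Cx3cl1, the chemokine fractalkine whose receptor is found on microglia, was at 4.83, 4.19 and 5.05 CPM in the KO high cultures, 1.46, 2.07 and 0.688 in the KO low cultures, 9.77, 7.77 and 4.38 in the WT high cultures and 2.61, 2.58 and 0.919 in the WT low cultures. High and low cultures did not overlap in either genotype (1.80 ± 0.29). Il34, a ligand of the receptor encoded by Csf1r, was at 0.186 to 0.453 CPM against 0.0491 to 0.19 CPM (high against low), a low level in every culture (1.76 ± 0.35). Csf1, the other ligand of that receptor, was at 33.4 to 47.1 CPM (median 39.9) in the high cultures and 9.63 to 38.2 CPM (median 22.9) in the low cultures, with overlap, and did not pass (0.86 ± 0.29). Tgfb2 differed by 1.10 ± 0.24 and Lif by 1.65 ± 0.31, while Tgfb1, Gas6 and Pros1, which macrophages also make, had differences of -0.05, -0.17 and -0.08 and did not pass. Il33 and Cntf had at most 17 counts in any library.

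Markers of vessels and of the tissue around them were low in most cultures. Of 8 endothelial markers 0 passed in either direction and the median was 0.02, which ran from -0.09 without WT replicate 6 to 0.12 without KO replicate 5, and Cldn5, a tight junction protein, was under 1 CPM in all 12 cultures. Among 10 genes of mural cells and fibroblasts (median 0.55, and 0.36 without KO replicate 2), 3 were higher: Acta2 and Tagln, proteins of the contractile skeleton (2.36 ± 0.35 and 1.65 ± 0.22), and Col1a1, a chain of collagen I (1.64 ± 0.34). Acta2 was at 7.17, 8.53 and 7.43 CPM in the KO high cultures, 2.24, 2.33 and 0.786 in the KO low cultures, 16.5, 11.1 and 5.21 in the WT high cultures and 2.89, 1.81 and 0.766 in the WT low cultures. The pericyte markers Rgs5, Abcc9 and Pdgfrb did not pass (-0.14 ± 0.22, 0.07 ± 0.20 and 0.57 ± 0.25). Ependymal and choroid plexus genes gave 1 of 4 higher, Foxj1, the factor for motile cilia (1.66 ± 0.29), and 2 without WT replicate 1 or WT replicate 6. Ttr, the transport protein of the choroid plexus, was at 30.1, 83.5 and 68.2 CPM in the KO high cultures, 7.26, 19.3 and 13.7 in the KO low cultures, 48.3, 49.3 and 6.94 in the WT high cultures and 9.94, 41.3 and 14.9 in the WT low cultures. Its values did not follow the score in WT, where the culture left out was at 91.7 CPM and a high culture at 6.94 CPM, and it did not pass (1.42 ± 0.53). Of the blood cell markers, haemoglobin, lymphocyte and natural killer cell genes had at most 20 counts in any library, and S100a8 and S100a9, abundant in neutrophils, did not pass (-0.40 ± 0.63 and -0.61 ± 0.75). The summed level of the list stood apart in 3 libraries, at 16.5 CPM in the low KO replicate 3, 12.3 CPM in the high KO replicate 7 and 11.0 CPM in WT replicate 2, which was left out, against 0.876 to 3.47 CPM in the other 11.

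**Figure D4:**
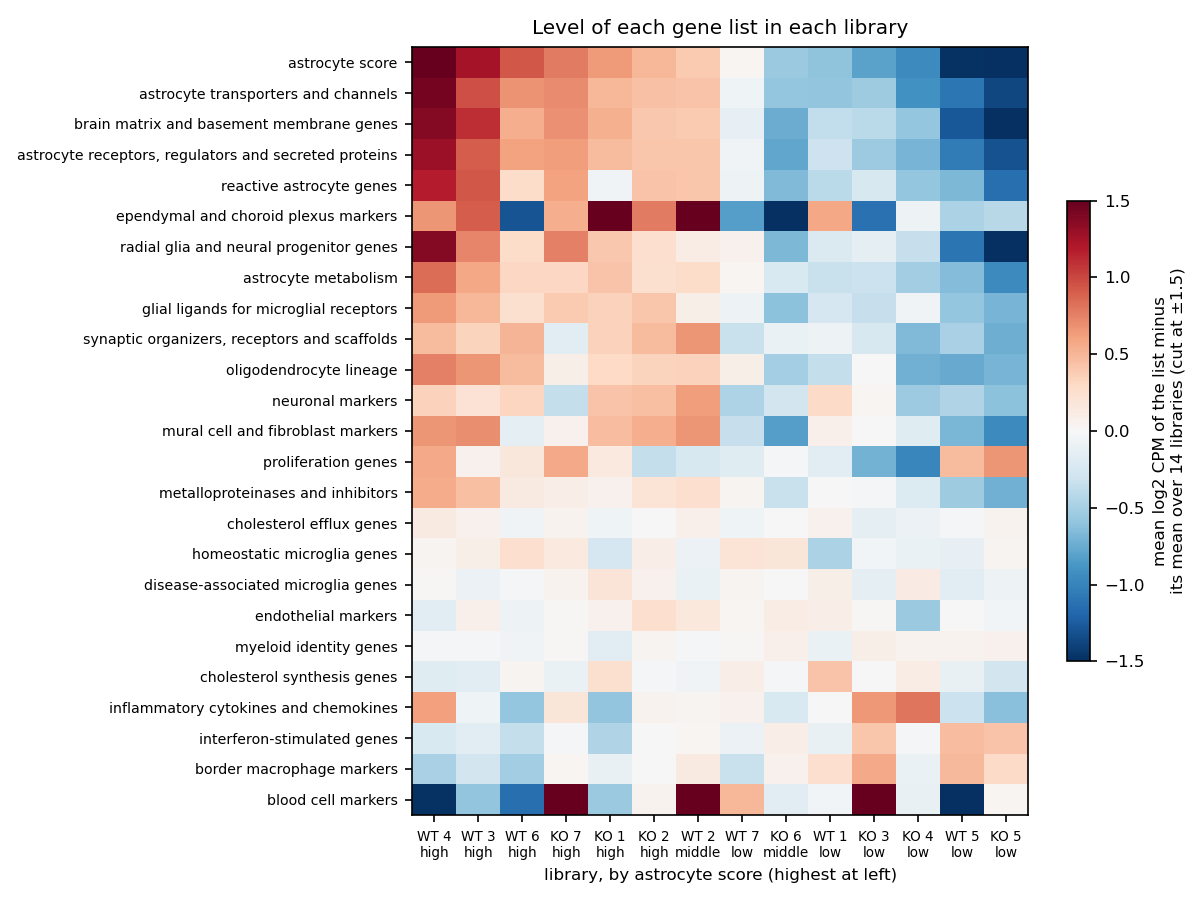
Mean log2 CPM of each gene list in each of the 14 libraries, minus the list's mean over the 14 (colour, red higher and blue lower, cut at 1.5 either way), with libraries ordered by astrocyte score from left to right. Astrocyte, matrix and progenitor lists fall with the score, while proliferation genes are high in the 2 libraries with the lowest scores as well as in some with high scores.

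Among genes of the microglia themselves, the myeloid identity and disease-associated lists differed little, while homeostatic genes ran from -0.23 to 0.99. Of 19 myeloid identity genes, 0 were higher and 2 lower, with a median of -0.04, and both differences were small: -0.13 ± 0.03 for Cd53, a tetraspanin, and -0.11 ± 0.03 for Fcer1g, the common chain of Fc receptors. Without KO replicate 1 neither passed and the list's median was -0.02, and without KO replicate 7 the median was -0.08. Csf1r was at 2217 to 2756 CPM (median 2495) in the high cultures and 2261 to 3308 CPM (median 2827) in the low cultures (-0.16 ± 0.08) and Itgam, the integrin chain targeted by the beads, differed by -0.03 ± 0.08. Of 16 homeostatic microglia genes 2 were higher, Sparc and Olfml3, both secreted proteins, and 0 lower, and 1 passed when a library other than KO replicates 1, 3 and 4 and WT replicate 7 was left out. Over all tested genes 8.29% passed as higher and 2.38% as lower, and nothing is read from a count of 2 in 16. Sparc was at 73.7, 69.0 and 79.4 CPM in the KO high cultures, 42.9, 43.9 and 34.2 in the KO low cultures, 113, 97.3 and 77.3 in the WT high cultures and 62.1, 42.7 and 30.9 in the WT low cultures (0.99 ± 0.15), and it is also known from astrocytes. Olfml3 was at 81.9 to 141 CPM (median 129) in the high cultures and 43.0 to 111 CPM (median 63.6) in the low cultures (0.85 ± 0.23). P2ry12, the purine receptor of resting microglia, was at 29.8 to 48.6 CPM (median 37.1) in the high cultures and 26.2 to 53.8 CPM (median 49.3) in the low cultures and differed by -0.23 ± 0.17, and Tmem119 by 0.55 ± 0.23, neither past the threshold. In 19 genes of the disease-associated state, which microglia take on near plaques and dying cells, 0 passed in either direction and the median was 0.03. The median ran from -0.01 without KO replicate 3 to 0.11 without WT replicate 1. It was 0.12 in the KO cultures alone (16 of 19 above 0) and -0.06 in the WT cultures alone (7 of 19 above 0). With the score as a gradient over all 14 libraries, 2 passed as higher. Apoe differed by 0.17 ± 0.10, Lpl by -0.01 ± 0.05 and Cst7 by 0.04 ± 0.19.

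Proliferation genes were all on the same side, with 29 of 29 above 0 and a median of 0.28, but 0 passed. Mki67, a protein of dividing cells, was at 61.6, 35.6 and 23.2 CPM in the KO high cultures, 17.4, 15.3 and 59.2 in the KO low cultures, 48.3, 33.2 and 44.2 in the WT high cultures and 29.8, 27.4 and 47.4 in the WT low cultures. A low KO culture and a low WT culture, both replicate 5, were among the highest for it, and the groups overlapped in both genotypes (0.33 ± 0.33). The median fell to 0.11 without KO replicate 7, 0.12 without KO replicate 4, 0.15 without KO replicate 3 and 0.18 without WT replicate 4, and it was 0.60 without KO replicate 5, where 2 passed. With the score as a gradient over all 14 libraries it was 0.03, with 19 of 29 above 0 and 0 past the threshold. With the replicate number as a block, which was not taken to pair the cultures, 29 of 29 passed as higher (median 0.96).

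Genes of cholesterol synthesis (18 tested, median -0.07) and of cholesterol efflux (5 tested, median 0.06) gave 0 calls, with -0.07 ± 0.13 for the synthesis enzyme Sqle and 0.08 ± 0.09 for the efflux pump Abca1. The synthesis genes lay on opposite sides in the genotypes, with 17 of 18 above 0 in the KO cultures alone (median 0.11) and 0 of 18 in the WT cultures alone (median -0.25), 0 past the threshold in either. Without WT replicate 1 the median over both genotypes was 0.04, with 13 of 18 above 0, and without KO replicate 5 it was -0.14, with 1 call lower. A block on the replicate number, which was not taken to pair the cultures, called 9 of 18 synthesis genes lower (median -0.19). The efflux median ran from 0.01 without WT replicate 4 to 0.10 without KO replicate 5.

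The list with the most genes past the threshold as lower was that of interferon-stimulated genes, which cells switch on in response to type I interferon. All 18 were below 0 with a median of -0.38, and 7 passed the threshold as lower: Ifit2, Rsad2, Ifi27l2a, Bst2, Usp18, Ifi204 and Oas1a. Ifit2, which binds viral RNA, was at 204, 151 and 216 CPM in the KO high cultures, 317, 209.6 and 364 in the KO low cultures, 165, 181 and 149 in the WT high cultures and 196, 197 and 390.4 in the WT low cultures. The WT and KO cultures labelled replicate 5 and KO replicate 3 were the highest, and high and low groups overlapped in KO through replicate 4. Rsad2, the antiviral enzyme viperin, was at 45.5 to 62.4 CPM (median 53.3) in the high cultures and 54.9 to 102 CPM (median 74.7) in the low cultures (-0.52 ± 0.15), and Bst2, the membrane protein tetherin, at 187 to 248 CPM (median 217) in the high cultures and 229 to 340.3 CPM (median 286) in the low cultures (-0.36 ± 0.10). Of the remaining 11, Ifit3 was furthest from 0, at -0.57. Summed over the list the level was 2116 to 2886 CPM (median 2512) in the high cultures and 2697 to 4003 CPM (median 3339) in the low cultures.

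The number of these calls moved with single libraries and with the processing. Without KO replicate 1, which had the lowest myeloid RNA of the KO cultures, 0 of the 18 passed, with a median of -0.31, and without KO replicate 5, WT replicate 4 or WT replicate 5 there were 1, 1 and 2. Leaving out KO replicate 3, WT replicate 3 or WT replicate 6 left 2 in each case, KO replicate 2 left 3 and KO replicate 7 left 4. There were 10 without WT replicate 1 or WT replicate 7 and 14 without KO replicate 4. The count was 15 with DESeq2, 17 without a filter on low counts, 18 with the score as a gradient over all 14 libraries and 5 with total counts as the only scaling. All 18 remained below 0 in each of these fits.

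Sequences before the start of these genes are shown for those that passed the threshold and carry a motif of the interferon response, which factors of the IRF family bind: the letters GAAA, any 2 bases, then GAAA again, searched on both strands in the 250 bases before the start of each gene in RefSeq (GRCm38.p6), with overlapping matches counted. Promoters were found for 11 of the 18 genes, and 6 of them (54.5%) held the motif, as did 3 of 4 among those past the threshold. Over all 27025 promoters of the table the share was 3.04%. Of the genes that passed as lower 36 of 305 with a promoter (11.8%) held it, and of those that passed as higher 22 of 995 (2.21%). The genes that passed as lower include the interferon-stimulated genes past the threshold, and that list was made of genes known to respond to interferon. The shares were not tested against each other, and no cause is read from them. Capitals mark a match or a run of overlapping matches, and each sequence is written 5′ to 3′ on the strand of its gene.
Rsad2 (chr12:26456551-26456584, minus strand, match on the opposite strand): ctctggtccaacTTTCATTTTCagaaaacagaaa
Bst2 (chr8:71537575-71537614, minus strand, 2 overlapping matches): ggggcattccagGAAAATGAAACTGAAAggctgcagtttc
Oas1a (chr5:120907526-120907557, minus strand, 2 overlapping matches): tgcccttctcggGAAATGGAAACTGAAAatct
The match began 120 bases before the start of Rsad2. The overlapping matches began 130 and 124 bases before the start of Bst2 and 20 and 14 before that of Oas1a. A match describes these letters and not a bound site.

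Border macrophages, which line the meninges and vessels, had all 10 tested markers below 0 with a median of -0.39, of which 1 passed. The count was 3 without KO replicate 4 or KO replicate 5, without a filter or with DESeq2, 2 without WT replicate 7, 4 with the score as a gradient over all 14 libraries, and 0 without KO replicate 1 and WT replicate 5 together, a pair chosen after seeing the data, where 8 of 10 were below 0. Mrc1, the mannose receptor, was at 354, 357 and 348 CPM in the KO high cultures, 559.9, 363 and 598 in the KO low cultures, 308, 342 and 349 in the WT high cultures and 409.5, 506 and 672 in the WT low cultures. It was lower in every high culture than in any low culture of its genotype (-0.59 ± 0.13). Cbr2 and Ms4a7 differed by -0.80 ± 0.25 and -0.44 ± 0.13, and Pf4, a chemokine of platelets and macrophages, by -0.33 ± 0.15, without passing. Among 14 cytokine and chemokine genes 2 passed as lower, Ccl12 and Ccl4 (-1.01 ± 0.28 and -0.22 ± 0.06), and 0 as higher, with a median of -0.23 (from -0.37 without WT replicate 4 to -0.11 without KO replicate 4). With the score as a gradient over all 14 libraries it was -0.05, with 7 of 14 above 0, and it was -0.42 in the KO cultures alone and -0.09 in the WT cultures alone. Neither passed without KO replicate 1, KO replicate 2, KO replicate 5, WT replicate 3, WT replicate 4 or WT replicate 5. Ccl12, a ligand for monocytes, was at 1.51 to 2.57 CPM (median 1.79) in the high cultures and 1.83 to 6.34 CPM (median 3.48) in the low cultures. Tnf and Il1b varied between cultures of the same group by more than the groups differed (-0.14 ± 0.46 and -0.40 ± 0.57).

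Genes outside these lists were named by a rule that needed at least 5 CPM and no overlap within either genotype. The 10 with the largest higher difference under it were Ptx3, A2m, Fbxo2, Igfbp3, Rgs16, Hspb8, Nog, Col12a1, Limch1 and Ccn1, with differences from 2.79 to 2.29. Ptx3, a secreted pattern-recognition protein, was at 9.98, 4.14 and 6.35 CPM in the KO high cultures, 1.23, 0.997 and 0.27 in the KO low cultures, 18.4, 14.1 and 8.75 in the WT high cultures and 4.53, 1.85 and 0.547 in the WT low cultures. A2m, the protease inhibitor alpha-2-macroglobulin, was at 5.69 to 18.8 CPM (median 7.51) in the high cultures and 0.565 to 2.82 CPM (median 1.28) in the low cultures (2.76 ± 0.27). Igfbp3, which carries insulin-like growth factors, was at 38.8, 28.9 and 26.2 CPM in the KO high cultures, 6.79, 6.58 and 1.72 in the KO low cultures, 62.1, 50.8 and 36.5 in the WT high cultures and 20.1, 10.1 and 3.09 in the WT low cultures. Nog, the secreted antagonist of bone morphogenetic proteins, differed by 2.35 ± 0.40. The low cultures were below all high cultures of their genotype for each of the 10, as the rule for naming them required.

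On the lower side the same rule named H2-Q7, H2-Q6, Clec4a1, Bmp2, Trim30c, Clec2d, Clec4a3, H2-Q4, Calhm6 and Hcar2, with differences from -1.39 to -0.51. H2-Q7 and H2-Q6, class I-like histocompatibility genes, are near-identical copies with H2-Q4 in 1 cluster, so that reads can be split between them and the value of each gene is uncertain. H2-Q7 was at 16.9, 7.17 and 23.5 CPM in the KO high cultures, 75.4, 32.8 and 34.3 in the KO low cultures, 11.1, 13.7 and 9.10 in the WT high cultures and 15.1, 19.8 and 43.7 in the WT low cultures. Clec4a1, a C-type lectin of myeloid cells, was at 29.0 to 64.4 CPM (median 40.0) in the high cultures and 47.4 to 140.1 CPM (median 65.3) in the low cultures (-0.85 ± 0.24), and its neighbour Clec4a3 differed by -0.59 ± 0.16. Bmp2, a bone morphogenetic protein, was at 7.87, 6.03 and 9.49 CPM in the KO high cultures, 14.6, 10.4 and 13.0 in the KO low cultures, 6.00, 6.41 and 4.52 in the WT high cultures and 6.68, 10.3 and 13.2 in the WT low cultures (-0.76 ± 0.17).

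With each of the 12 libraries left out in turn, 63 of the 83 genes that were named by rule and were past the threshold passed in every fit, and none of the 83 changed sign. On the higher side, the call was lost in 9 of the 12 fits for Cbs and Nlgn3, in 8 for Lcn2 and Olfml3, in 7 for Egfr and Sox10, in 6 for Sox2, in 5 for Mbp and in 4 for Nes. On the lower side, besides the interferon-stimulated genes, it was lost in 9 for Ccl4, in 8 for Ccl12, in 6 for Clec4a1 and Fcer1g, in 5 for Clec4a3 and Calhm6 and in 1 each for Gbp2 (without KO replicate 1), Cd53 (without KO replicate 1, -0.11) and H2-Q7 (without WT replicate 5, -1.18). Over whole lists, the calls kept in every fit were 9 of 9 for astrocyte transporters and channels, 9 of 11 for receptors, regulators and secreted proteins, 12 of 13 for matrix genes, 10 of 19 for synaptic genes and 2 of 7 for radial glia and progenitors, and Mrc1 kept its call. The differences kept their sign but moved in size, from 0.92 to 1.27 for Cbs, from 1.17 to 1.84 for Nlgn3 and from -1.17 to -0.82 for Ccl12.

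Since the split was made within each genotype, the difference between KO and WT can be tested with the side as a covariate. Of 16226 genes, 3 (0.0185%) passed at an adjusted p under 0.05, and 787 had an unadjusted p under 0.05. The 3 were Timp2 (chr11:118301069-118355740, -1.91 ± 0.05, adjusted p = 6.26e-10 with edgeR), Engase (chr11:118476829-118489209, -1.18 ± 0.10, adjusted p = 0.000368 with edgeR) and Gm11748 (chr11:118476470-118479458, -1.48 ± 0.16, adjusted p = 0.00521 with edgeR), all lower in KO, with coordinates on GRCm38. Engase, an enzyme that releases glycans, was at 56.9, 50.5 and 58.7 CPM in the KO high cultures, 52.6, 49.5 and 73.8 in the KO low cultures, 117, 128 and 133 in the WT high cultures and 126, 116 and 155 in the WT low cultures. It overlaps Gm11748 on the opposite strand, and the strand setting of the counts is not given in the sources used here, so that their reads cannot be told apart. All 3 lie on chromosome 11. None of them passed the threshold for high against low.

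H2-Aa, Itgal, Arsg and Csf2ra, genes of antigen presentation, adhesion, lysosomes and cytokine reception, were looked at because the study names them for these cultures. It gives them among the genes that differed between KO and WT at an adjusted p under 0.05. With the side in the fit, KO minus WT was, in that order, 0.98 ± 0.22, 0.40 ± 0.11, 0.40 ± 0.09 and 0.11 ± 0.04, with adjusted p values of 0.952, 0.986, 0.952 and 0.986 (edgeR). Their differences between high and low cultures were 0.09 ± 0.22, -0.15 ± 0.10, -0.08 ± 0.09 and -0.01 ± 0.04, none past the threshold. For KO against WT the study used DESeq2 on all 14 libraries with batch as a covariate. The fit here used edgeR on 12 libraries, with the side and without batch. Since libraries, method and covariates differ, the adjusted p values given here do not test the study's result for these genes.

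The interaction asked whether the difference between high and low cultures differed between KO and WT. Of 16226 genes, which here include the 6 score genes, 0 passed (0%, edgeR), and 297 had an unadjusted p under 0.05. As differences of mean log2 CPM within each genotype, which are not the fitted values given above, Ncan had 2.71 in KO and 2.55 in WT. On the same measure Nrxn2 had 1.36 and 1.65, and Ifit2 -0.62 and -0.59. A p above the threshold with 3 cultures a cell does not show that the genotypes respond alike.

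List medians of KO minus WT are given for 3 fits, which share libraries and are set side by side without a test. The third holds the score itself as a term, which by construction takes up the difference of any gene that follows the score, so its values near 0 for such lists are no measure of how much of the difference between genotypes is astrocyte RNA. With genotype alone in all 14 libraries, the median was -0.60 for astrocyte transporters and channels, -0.56 for matrix genes, -0.38 for the oligodendrocyte lineage, -0.28 for synaptic genes and 0.13 for interferon-stimulated genes. With high or low as a term in the 12 libraries it was -0.60, -0.41, -0.24, -0.18 and 0.14. With the score itself as a term in the 14 libraries it was 0.03, 0.08, -0.05, -0.08 and 0.01. Matrix genes tested numbered 13 with genotype alone and 15 with the side, and oligodendrocyte genes 18 and 19, so their medians are not over the same members. Synaptic genes below 0 numbered 30 of 32 with genotype alone, 28 with the side and 21 with the score. All 18 interferon-stimulated genes were above 0 in the first 2 fits, and 12 in the third. The proliferation list kept a median of -0.11, -0.16 and -0.10, with 29 of 29 genes below 0 in each fit, and myeloid identity genes had 0.04, 0.05 and 0.03. Over all tested genes the median was 0.0016, -0.0040 and 0.0014. The score as a term takes in the difference of -0.625 between the mean scores of KO and WT, which the side, being set within genotype, leaves in place.

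**Figure D5:**
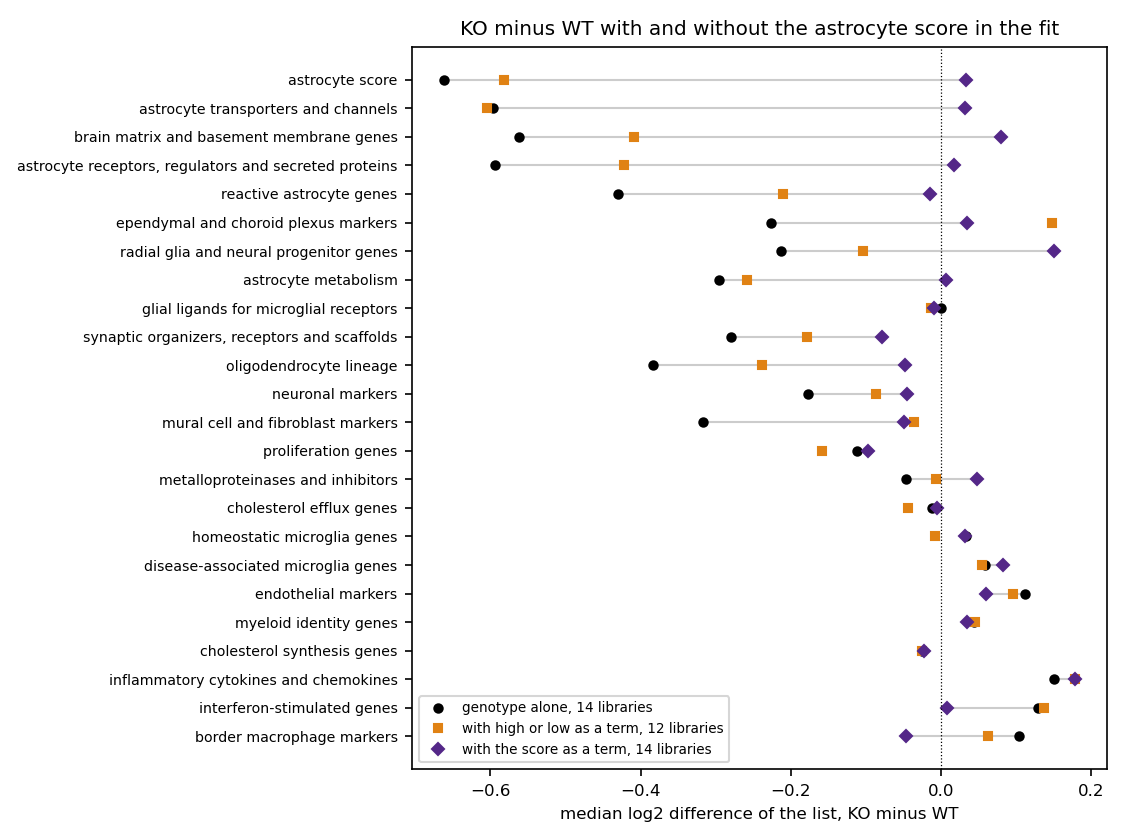
Median log2 difference, KO minus WT, of each gene list in 3 fits that share libraries: genotype alone in 14 libraries (black circles), with high or low as a term in 12 (orange squares) and with the astrocyte score as a term in 14 (purple diamonds). Astrocyte transporters lie at -0.60, -0.60 and 0.03, and proliferation genes at -0.11, -0.16 and -0.10.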

How the data were processed

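Gene counts were deposited for 14 libraries, 7 per genotype. Per the labels and the methods, the authors trimmed reads (Trimmomatic 0.36), aligned them to GRCm38 with STAR 2.5.2b and counted them per gene with featureCounts of Subread 1.5.2. The annotation release and the strand setting are not given in the sources used here. The study models batch, but the labels give none, so that batch could not enter a fit.

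Here the raw counts were analysed with edgeR 4.0.16 in R 4.3.3 (filterByExpr with a minimum count of 10, TMM scaling, quasi-likelihood test, genotype as covariate), on 16220 of 49315 genes after the filter and without the 6 score genes. The score, the split into high and low libraries and the 25 lists (383 genes) were chosen with earlier results of these data known. Genes were named by rule: per list up to 4 with the largest difference past the threshold and the first 3 tested, outside the lists 10 per direction with no overlap and at least 5 CPM, any past the threshold for genotype, and Timp2, H2-Aa, Itgal, Arsg and Csf2ra, which the study names for this experiment. Other list members in the text were chosen after their values were seen. Gene coordinates are on GRCm38 (GENCODE M21), and promoters are from RefSeq. Each library is described as an independent isolation. No pair of libraries agreed within sampling noise (lowest chi-square per degree of freedom 6.40 over 91 pairs). Scripts were tested on simulated data. Alternatives were other scalings, no filter, DESeq2 1.42.0, a replicate block, the score as a gradient, single genotypes and each library left out. Some genes of the lists are counted in them but not reported by name here.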

Additional observations from a re-analysis of the deposited data

Results flagged for a closer look

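Dixon's criterion at the 95% level was applied to 348 sets of 7 libraries of 1 genotype, each set holding 1 gene or 1 list, and 11 met it, while chance gives about 1 in 20. In each of them 1 library stood far from the other 6. KO replicate 1 had the lowest mean level of the myeloid identity genes (9.29 log2 CPM, the next KO library 9.48), of Glul (497.6 CPM, next 574) and of Aif1, which encodes the microglial protein IBA1 (55.3 CPM, next 91.5). KO replicate 4 was lowest for the endothelial markers (0.154 log2 CPM, next 0.666) and highest of the KO libraries for Timp2 (129 CPM, next 122.5). WT replicate 5, the WT library with the lowest astrocyte score, was lowest for Vim (402 CPM, next 614) and highest for Lpl (6667 CPM, next 6371), for Pf4 (30.0 CPM, next 19.5) and for Bst2 (340.3 CPM, next 239.7). WT replicate 2 was highest for Rgs5 (4.28 CPM, next 1.51), and WT replicate 4, the library with the highest score, for Tnf (51.5 CPM, next 22.5). KO replicate 1 and WT replicate 5 lie on opposite sides of the split, and the counts without both are given with the processing.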

How the results depend on the processing

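The split was the same when any 1 of the 6 score genes was left out, and with it the counts. Genes past the threshold as higher numbered 1322 to 1638 under the other scalings, no filter, DESeq2 and the replicate block (1345 as reported), 83 in KO alone, 0 in WT alone and 803 without KO replicate 1 and WT replicate 5 together, an alternative chosen after seeing the data. Lower genes (386 as reported) numbered 237 with total counts only, 748 with DESeq2, 1152 with the score as a gradient in all 14 libraries (1883 higher), 0 in KO alone and in WT alone, and 44 without those libraries, where 0 of 18 interferon-stimulated genes passed although all 18 were below 0 (median -0.20). Leaving out 1 library gave 960 (without WT replicate 4) to 1363 higher and 147 (without KO replicate 1) to 495 lower, with 241, 233 and 196 lower without KO replicate 2, WT replicate 4 and WT replicate 5. Higher genes made up 77.7% of the calls as reported, 72.7% with DESeq2 size factors and 85.8% with total counts only. For genotype, the count was 3 as reported, 7 without a filter, 15 with DESeq2, 14 with the replicate block and 3 to 4 with 1 library left out, and the interaction gave 0 in every fit that had it.

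Libraries with the same replicate number had correlated deviations only in part (from -0.183 to 0.717 over the 7 numbers), so the numbers were not taken to pair them. The value of 0.717 was that of replicate 5, whose KO and WT libraries were both low cultures. Anything else these libraries share cannot be told apart from their low astrocyte RNA, and no fit left out both. The replicate block gave 1638 higher and 459 lower, of which 1089 and 179 were among those reported. It called 29 of 29 proliferation genes higher (median 0.96, against 0 calls and 0.28 as reported), 9 of 18 cholesterol synthesis genes lower (median -0.19, against 0 calls), 5 interferon-stimulated genes lower (median -0.25, against 7), 13 synaptic genes higher (against 19) and 3 neuronal markers higher (against 1). The block's median was 0.37 for the oligodendrocyte lineage (0.64 as reported) and 0.36 for neuronal markers (0.57 as reported). For mural cells and fibroblasts it was 0.27 (0.55 as reported), and for metalloproteinases and inhibitors 0.11 (0.27 as reported). The paired difference of the score was -0.625 (exact sign-flip permutation p = 0.297). Of the 83 genes named by rule and past the threshold, 0 changed sign in 28 alternatives and 63 passed in every fit with 1 library left out. Differences were limited by 6 libraries a side and, for Acan, Il34, Lif and Aspg, by levels under about 1 to 2 CPM. The cause of these changes was not tested.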

Other observations

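The 2 libraries in the middle of the score, KO replicate 6 and WT replicate 2, belong to no comparison of high with low. In KO replicate 6 the summed astrocyte transporters and channels were at 38.1 CPM and the matrix genes at 188 CPM, near or within the KO low cultures (24.9 to 35.7 CPM and 121 to 197 CPM). WT replicate 2 had 69.9 CPM of the transporters, between the WT low (27.1 to 49.7 CPM) and WT high cultures (87.1 to 149 CPM), while its matrix genes, at 229 CPM, lay within the range of the WT low cultures (125 to 231 CPM). Its synaptic genes, at 229.5 CPM, were within the range of the WT high cultures (221.5 to 248 CPM), and its neuronal markers, at 99.9 CPM, were above those of the other 13 libraries (51.9 to 94.1 CPM). Choroid plexus and ependymal markers separated the 2 libraries most, at 1.66 CPM in KO replicate 6 and 96.1 CPM in WT replicate 2, both outside the range of all 12 others (8.18 to 87.7 CPM). Summed interferon-stimulated genes were at 3091 CPM and 2921 CPM, between the medians of the high (2512 CPM) and the low cultures (3339 CPM).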
